A study of Mus musculus with 8 samples.

Results

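De novo lipogenesis, the making of fatty acids from carbohydrate carbon, was described at the level of mRNA in the liver of obese NZO and lean B6 mice. Rows of the scanner output that carried the gene name of Acly, Acaca, Acacb, Fasn, Scd1, Elovl6, Me1, Srebf1, Mlxipl or Thrsp were taken, which gave 18 probes of 10 genes out of 55681 probes on the array. NZO mice (NZO/HiBomDife) become obese and develop diabetes, while B6 mice (C57BL/6) stay lean, and the study set these strains against each other. All animals were males of 6 weeks on a diet with 45% fat, with 4 liver samples of each strain, each on an array of its own with 1 colour. The samples are named by the numbers in their labels, NZO 007, 003, 009 and 011 and B6 011, 010, 015 and 009. A strain differs from the other at many loci, and the labels give no group on another diet or at another age. Levels are log2 intensities relative to the 75th percentile of the same array, differences are NZO minus B6 on that log2 scale, and levels of different probes cannot be set against each other. A probe was called when the Benjamini-Hochberg adjusted p of limma over 27643 probes was at most 0.05. The labels do not say how the samples were taken from animals, so the p-values measure the spread between these samples, which may in part be technical. All 5 hepatocyte markers were above background, and their summed level was 3789 to 3917 times the 75th percentile in NZO and 3002 to 3766 times in B6.

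The pathway starts from citrate, which leaves the mitochondrion and is split by ATP citrate lyase (Acly) into acetyl-CoA. The acetyl-CoA carboxylases (Acaca, Acacb) turn acetyl-CoA into malonyl-CoA, and fatty acid synthase (Fasn) builds palmitate from both with NADPH, part of which malic enzyme (Me1) supplies. Elovl6 then lengthens palmitate to stearate and Scd1 puts a double bond into the products. In liver, the transcription factors SREBP-1 (from Srebf1), which answers to insulin and to the LXR receptors, and ChREBP (from Mlxipl), which answers to sugar metabolites, switch these genes on, and Thrsp is a small protein that goes with them.

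The sequences that carry the results are those of the Me1 probes, of which 1 was called and 2 were not, and of the Srebf1 probe. Each probe has 60 bases, of which the first 30 are printed, with positions on mm9 as in the files. All 4 lie on the minus strand of their chromosome, and none shared a run of 20 bases with a probe of another gene.
Me1 A_55_P2009952, chr9:86475077-86475136: cctaatgacaacttgtgactaacggtttct
Me1 A_55_P2171413, chr9:86475215-86475274: ttctgtgtatctagagactcctgactttga
Me1 A_55_P2016842, chr9:86480571-86480630: aggccggctctatcctcctttgaataccat
Srebf1 A_55_P2002557, chr11:60012664-60012723: ggtcggcatccacaggccgcacacttccaa
The first and second Me1 probe start 138 bases apart and the third lies 5356 bases from the second. Of the 4 Acaca probes, 2 are close to the same measurement, since A_55_P2019058 and A_55_P2084706 start 1 base apart and share 55 bases, as their first 30 bases show.
Acaca A_55_P2019058, chr11:84215093-84215152: gcttcagtccaatgcactcttctcacgttt
Acaca A_55_P2084706, chr11:84215094-84215153: cttcagtccaatgcactcttctcacgtttt

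Every one of the 18 lipogenesis probes was well above background on all 8 arrays, so none was lost to the filter on dim probes. Of these, 1 was higher in NZO (Me1) and 1 was lower (Srebf1), and at an unadjusted p under 0.05 the counts were 4 and 1, against 13.7% higher and 14.1% lower of all probes. The unadjusted counts were 7 and 1 without NZO 007, and 1 and 1 without NZO 003 or without B6 011. Among all probes tested, 6.78% were higher and 7.44% lower, 14.2% together, so the 2 called lipogenesis probes (11.1%) were no larger a share than among all probes. In the deposited table without scaling, 991 of all probes were higher and 3358 lower, where the scaled values gave 1874 and 2057, and the lipogenesis counts were 1 and 1 there too. At the thresholds of the study (unadjusted p of 0.05 and a log2 difference of 0.7) the counts were also 1 and 1, against 5.17% higher and 7.08% lower of all probes. The values of the strains did not overlap for 3 of the 18 probes, against 22.0% of all probes. The median difference was 0.21 over the lipogenesis probes, 13 of which were positive, and 0.01 over all probes tested. Without NZO 011 or without B6 011, 9 of the 18 differences were positive, with medians of 0.07 and 0.12. Without NZO 007, 15 were positive with a median of 0.38. Within the arrays of scan day 2, 7 were positive with a median of -0.16, where that of all probes was -0.05. In the deposited table without scaling 9 were positive, with a median of -0.02 where that of all probes was -0.15.

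**Figure D1:**
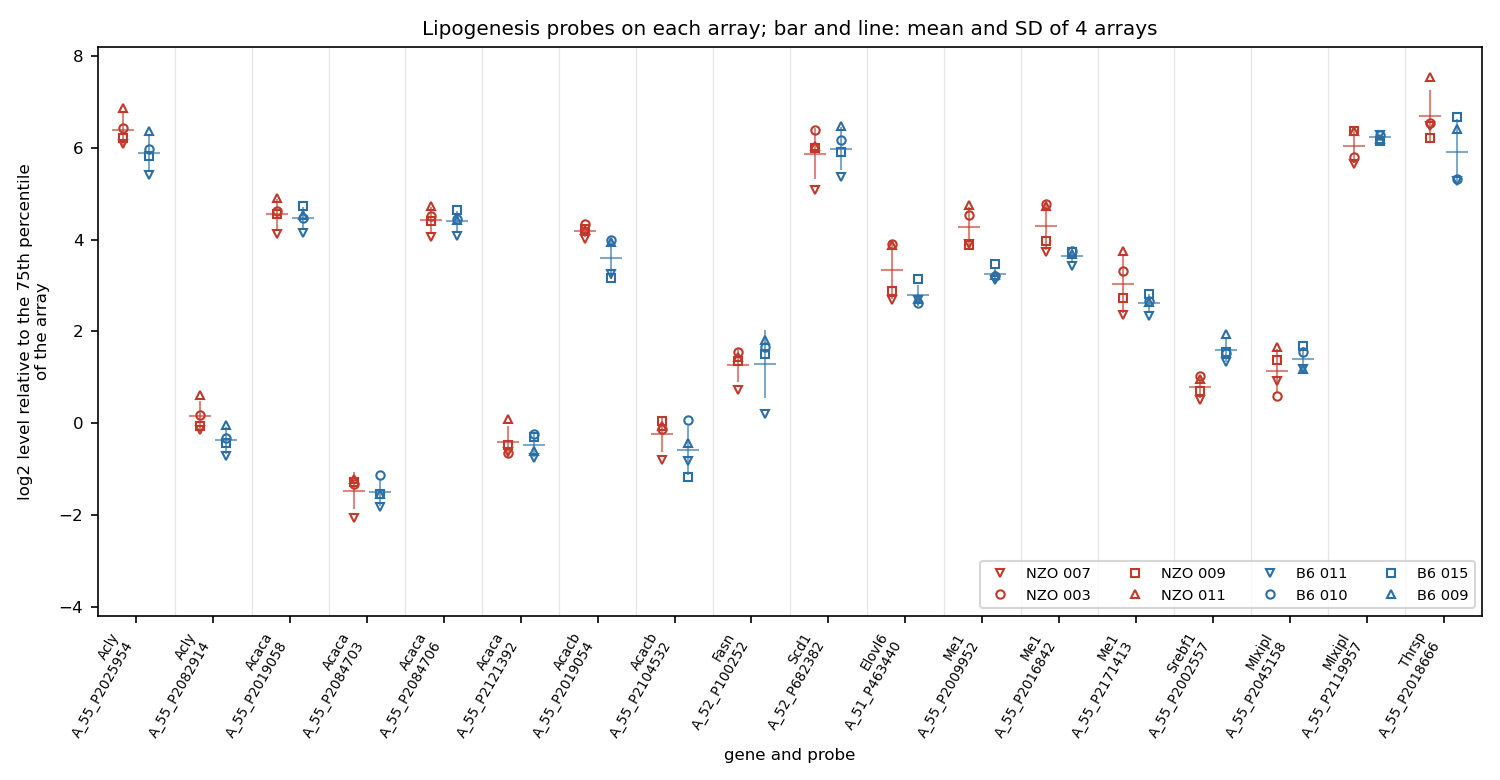
Level of each lipogenesis probe on each array, as log2 relative to the 75th percentile of the array (vertical axis), with NZO in red and B6 in blue and the mean and SD of 4 arrays as a bar and a line. The strains are apart for Me1 A_55_P2009952 (3.87 to 4.75 against 3.11 to 3.47) and for Srebf1 (0.49 to 1.02 against 1.33 to 1.94), and they mix for most others.

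Me1, which makes NADPH while it turns malate into pyruvate, was the member that was higher in NZO. Probe A_55_P2009952 had levels of 3.90 in NZO 007, 4.55 in NZO 003, 3.87 in NZO 009 and 4.75 in NZO 011, and of 3.11 in B6 011, 3.22 in B6 010, 3.47 in B6 015 and 3.23 in B6 009. Every NZO value lay above every B6 value, and NZO 003 and NZO 011 stood above the other NZO arrays. The difference was 1.01 (SE 0.22, 95% confidence interval 0.52 to 1.50), a 2.01-fold higher signal, with an adjusted p of 0.0159 in limma. That difference did not pass with slide as a fixed term (1.20 in limma), a fit that takes it from the 1 slide that held both strains. Nor did it pass in the t-test with Welch correction of the study's methods (adjusted p = 0.104). Within the 5 arrays of scan day 1 it was 1.05, within the 3 of scan day 2 it was 0.73 and within the slide that held both strains it was 1.20, with adjusted p of 0.119, 0.107 and 0.0928. Scan day 1 held 3 NZO and 2 B6 arrays, while scan day 2 and that slide each held 1 NZO array and 2 B6 arrays, so that the latter 2 fits assume the lone NZO array to vary as the B6 arrays do.

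The other Me1 probes gave smaller differences. Probe A_55_P2016842 read 3.73, 4.78, 3.96 and 4.73 in NZO 007, 003, 009 and 011 and 3.42, 3.76, 3.73 and 3.69 in B6 011, 010, 015 and 009, a difference of 0.65 (SE 0.25, adjusted p = 0.132 in limma). Without NZO 007 this probe was called too, with a difference of 0.84 and an adjusted p of 0.0433 in limma, while it was 0.49 without NZO 003, 0.75 within scan day 1 and 0.17 within scan day 2. Probe A_55_P2171413 read 2.35, 3.32, 2.72 and 3.75 in NZO and 2.34, 2.66, 2.81 and 2.64 in B6, in the same order of arrays, a difference of 0.42 (SE 0.29, adjusted p = 0.392 in limma). That difference was 0.65 without NZO 007, 0.18 without NZO 011, 0.53 within scan day 1 and -0.15 within scan day 2. NZO 003 and NZO 011 were thus the high arrays of NZO with all 3 probes, while NZO 007 fell among the B6 values with the latter 2. NZO 009 also fell among the B6 values with A_55_P2171413. The strain difference of A_55_P2009952 exceeded that of A_55_P2016842 by 0.36 and that of A_55_P2171413 by 0.59. Both had a p of 0.0286 in a two-sided exact permutation test of 4 against 4 arrays, the smallest it can give, and of 0.171 after adjustment over the 12 pairs of probes of the same gene.

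Acly makes the acetyl-CoA of the cytosol. Its probe A_55_P2025954 read 6.08, 6.44, 6.21 and 6.88 in NZO 007, 003, 009 and 011 and 5.41, 5.97, 5.83 and 6.36 in B6 011, 010, 015 and 009. Each strain had its lowest value in NZO 007 and B6 011 and its highest in NZO 011 and B6 009, and B6 009 lay above NZO 007 and NZO 009. The difference was 0.51 (SE 0.24, adjusted p = 0.211), and it was 0.53 (SE 0.20, adjusted p = 0.137) with probe A_55_P2082914, which lies 27844 bases away, both in limma. Neither probe was called, and the 95% confidence intervals ran from -0.04 to 1.06 and from 0.06 to 1.00. Leaving out each array gave 0.35 to 0.66 and 0.37 to 0.64, and within scan day 2 the differences were 0.19 and 0.23.

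No probe of either carboxylase was called. For Acaca, the cytosolic form, all 4 probes gave differences between 0.03 and 0.08, with adjusted p from 0.812 to 0.937 in limma, and between -0.10 and 0.24 when each array was left out. Under the other alternatives they ranged from -0.39 (A_55_P2084703 within scan day 2) to 0.49 (A_55_P2121392 with the number in the label as a block). Probe A_55_P2019058, for example, read 4.11, 4.62, 4.57 and 4.91 in NZO 007, 003, 009 and 011 and 4.15, 4.47, 4.72 and 4.53 in B6 011, 010, 015 and 009, and its 95% confidence interval ran from -0.35 to 0.52. The values of the strains were mixed, with NZO 007 and B6 011 lowest. Acacb, the form at the mitochondrion whose malonyl-CoA restrains fatty acid oxidation, read 4.0, 4.33, 4.23 and 4.21 in NZO and 3.26, 4.0, 3.16 and 3.94 in B6 with probe A_55_P2019054, in the same order. The lowest NZO value and the highest B6 value were equal to 2 decimals, and the difference was 0.60 (SE 0.21, adjusted p = 0.105 in limma). Probe A_55_P2104532 of Acacb gave 0.34 (SE 0.29, adjusted p = 0.491), and 0.15 without B6 015, 0.56 without B6 010, 0.53 without NZO 007 and -0.18 within scan day 2. Probe A_55_P2019054 gave 0.46 to 0.74 when each array was left out and 0.40 within scan day 2.

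Fasn, which builds palmitate, read 0.71, 1.54, 1.36 and 1.45 in NZO 007, 003, 009 and 011 and 0.19, 1.66, 1.50 and 1.81 in B6 011, 010, 015 and 009. NZO 007 and B6 011 lay below all other arrays, which spanned 1.36 to 1.81. The difference was -0.03 (SE 0.36, adjusted p = 0.972 in limma), and its 95% confidence interval, -0.86 to 0.81, reached from 0.551-fold to 1.75-fold. It was -0.39 (SE 0.22) without B6 011, 0.16 without NZO 007 and -0.21 without both. Scd1, which puts the double bond into stearate and palmitate, read 5.07, 6.38, 6.01 and 6.04 in NZO and 5.37, 6.17, 5.91 and 6.47 in B6, with the same arrays lowest. Its difference was -0.11 (SE 0.32, adjusted p = 0.863 in limma), with an interval from -0.84 to 0.63, and it was -0.31 without B6 011 and 0.16 without NZO 007. Within scan day 1 it was 0.10, within scan day 2 it was -0.85 and within the slide with both strains it was 0.34. Differences of Fasn or Scd1 within these intervals, in either direction, were compatible with the values of 4 arrays a strain.

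Elovl6, which makes stearate from palmitate, read 2.69 in NZO 007, 3.91 in NZO 003, 2.88 in NZO 009 and 3.89 in NZO 011. In B6 it read 2.67, 2.61, 3.13 and 2.71 in 011, 010, 015 and 009. The NZO arrays fell into a high and a low pair, the same pairs as for Me1, and the low pair lay among the B6 values. The difference was 0.56 (SE 0.30, adjusted p = 0.277 in limma). It was 0.37 without NZO 003, 0.38 without NZO 011, 0.69 within scan day 1, -0.0036 within scan day 2 and 1.04 within the slide with both strains.

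Srebf1, the gene of SREBP-1, was the member that was lower in NZO. It read 0.49 in NZO 007, 1.02 in NZO 003, 0.70 in NZO 009 and 0.96 in NZO 011, against 1.33 in B6 011, 1.52 in B6 010, 1.56 in B6 015 and 1.94 in B6 009. Every NZO value lay below every B6 value. The difference was -0.79 (SE 0.17, 95% confidence interval -1.18 to -0.40), 0.578 of the B6 signal, with an adjusted p of 0.0159 in limma. With slide as a fixed term, where it again came from the 1 slide with both strains, it was -0.52 and did not pass in limma. Within scan day 1 it was -0.64, within scan day 2 it was -1.14 and within the slide with both strains it was -0.52, with adjusted p of 0.0824, 0.142 and 0.283, the latter 2 again with 1 NZO array, and with each array scaled to its median it was -0.72 with an adjusted p of 0.0706. A single probe measured Srebf1. The files annotate it to 1 RefSeq transcript, and whether it also reads others was not determined here.

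Mlxipl, the gene of ChREBP, was not called. Probe A_55_P2119957 read 5.65, 5.80, 6.37 and 6.37 in NZO 007, 003, 009 and 011 and between 6.16 and 6.29 in B6. NZO 007 and NZO 003 lay below the B6 values and the other NZO arrays above them, and the difference was -0.18 (SE 0.18, adjusted p = 0.565 in limma). Probe A_55_P2045158 gave -0.26 (SE 0.24, adjusted p = 0.539). Leaving out each array gave -0.29 to -0.05 for the former (nearest to 0 without NZO 007) and -0.43 to -0.08 for the latter (nearest to 0 without NZO 003). Under the other alternatives the former ranged from -0.58 to 0.14 and the latter from -1.02 to 0.35. Thrsp read 6.48, 6.53, 6.23 and 7.54 in NZO and 5.28, 5.31, 6.66 and 6.40 in B6 011, 010, 015 and 009. Its values were the most spread of the B6 group besides Fasn, with SD of 0.72 and 0.74. The difference of Thrsp was 0.78 (SE 0.40, adjusted p = 0.253), so a 1.72-fold higher mean was within the spread between samples. The difference was 0.50 without NZO 011, 1.03 without B6 015 and 0.64 within scan day 2.

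**Figure D2:**
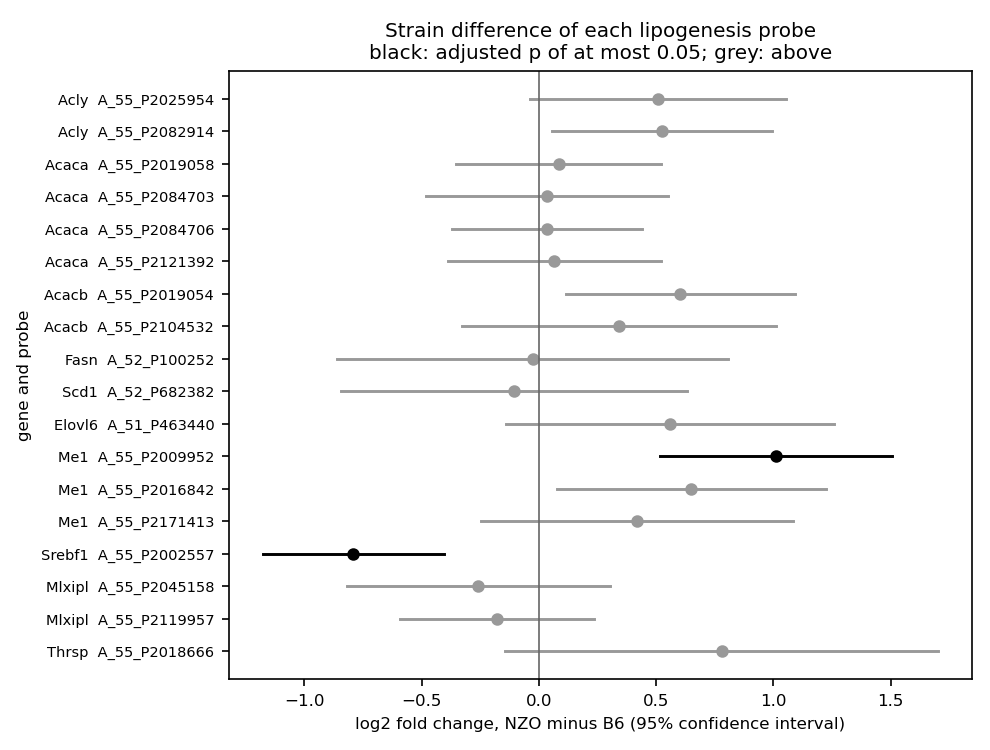
Difference of each lipogenesis probe between the strains (horizontal axis, log2 fold change, NZO minus B6) with its 95% confidence interval, black where the adjusted p was at most 0.05. Me1 A_55_P2009952 at 1.01 and Srebf1 at -0.79 are the called probes, and the intervals of Fasn, Scd1 and Thrsp are wide.

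On 3 of the 8 arrays nearly all lipogenesis probes lay to the same side of the mean of their strain. NZO 007 lay below the mean of its strain with 18 of 18 probes and was the lowest NZO array with 14, while of all probes tested it lay below the mean for 62.3% and was lowest for 39.3%. NZO 011 lay above the mean with 18 of 18 and was highest with 10, while of all probes it lay below the mean for 48.5% and was highest for 19.7%. B6 011 lay below the mean with 17 of 18 probes and was the lowest B6 array with 13, while of all probes it lay below the mean for 41.2% and was lowest for 18.2%. The median deviation of the lipogenesis probes was -0.39 in NZO 007 and -0.30 in B6 011, where that of all probes was -0.07 and 0.04, and 0.40 in NZO 011, where it was 0.01. On the other arrays the probes were mixed, with 4 of 18 below the mean in NZO 003, 10 in NZO 009, 5 in B6 010, 8 in B6 015 and 6 in B6 009, where the shares of all probes below the mean were 37.0%, 48.4%, 53.0%, 51.7% and 52.8%. The deviations were largest for Fasn in B6 011 (-1.10) and Thrsp in NZO 011 (0.84). These counts are a description, since probes of a gene and genes of a pathway are not independent. The arrays of a strain are not independent either, since an array below their shared mean sets others above it.

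**Figure D3:**
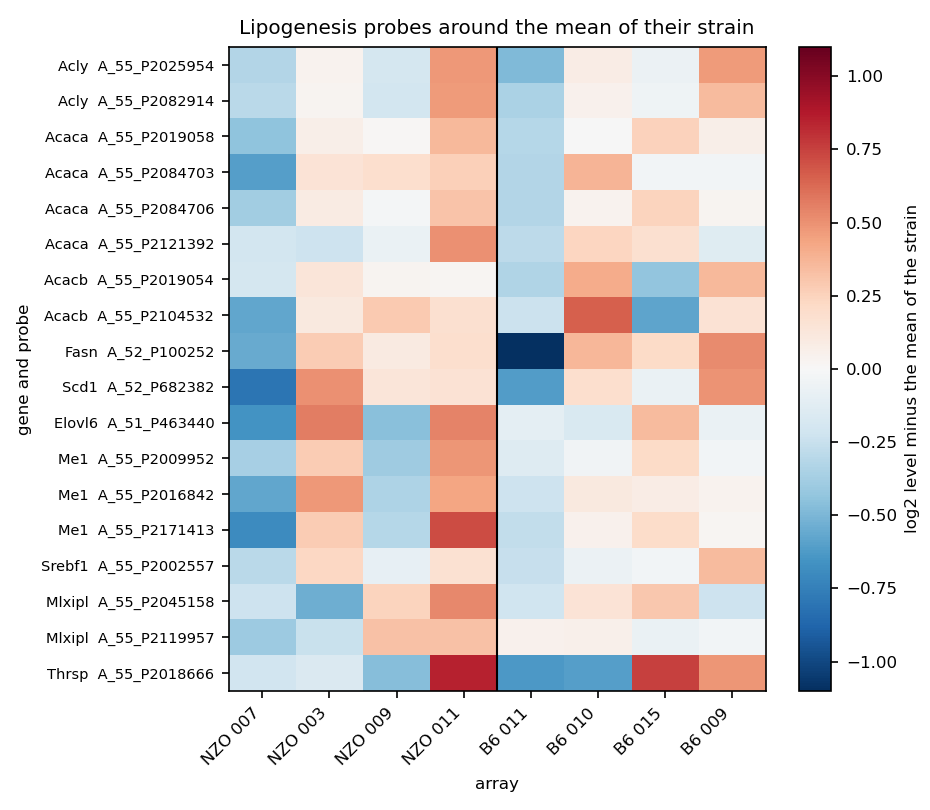
Level of each lipogenesis probe (rows) on each array (columns) after the mean of the strain was subtracted, as log2, from blue (below) to red (above). The columns of NZO 007 and B6 011 are blue almost throughout and that of NZO 011 is at or above the mean throughout.

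NZO 007 and B6 011 were scanned on day 2, as was B6 009, whose lipogenesis probes had a median deviation of 0.05, and each was here the only array of its slide. NZO 009 and NZO 011 shared a slide, and their median deviations were -0.05 and 0.40. NZO 007 also carried more signal of skeletal muscle markers, with a sum of 18.8 against 0.21 to 0.40 on the other NZO arrays and 0.43 to 6.18 in B6, in which the Myh4 probe was brightest. The part of scan day and of muscle RNA in the low values was not tested. Without NZO 007 and B6 011, a choice made after the values were seen, Me1 differed by 1.08 (adjusted p = 0.0425) and Srebf1 by -0.78 (adjusted p = 0.0349 in limma), and these 2 probes stayed the only ones called.

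The genes around the pathway were taken from 8 lists with 99 genes, of which 135 probes of 97 genes could be tested. Of these probes, 14 were higher in NZO and 7 lower, together 15.6%, against the 14.2% of all probes. The median difference was 0.08, with 80 of 135 positive.

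Sugar entry and the targets of ChREBP had 4 of 13 probes higher and 0 lower in limma (5 and 1 at an unadjusted p under 0.05, 5 and 0 with the methods' t-test, and 0 and 0 with that test after adjustment), and these were probes of 4 genes. Fgf21, a hormone of the liver, differed by 2.45 (SE 0.65), Tkfc, which phosphorylates glyceraldehyde from fructose, by 1.03 (SE 0.25), Pklr, the liver pyruvate kinase, by 0.96 (SE 0.22) and Khk, the fructokinase, by 0.52 (SE 0.14), with adjusted p of 0.0403, 0.0265, 0.0206 and 0.0382. Pklr read 2.08, 2.55, 2.16 and 2.82 in NZO 007, 003, 009 and 011 and 1.16, 1.85, 1.20 and 1.57 in B6 011, 010, 015 and 009. Every NZO value of Pklr was above every B6 value, and NZO 003 and NZO 011 were the higher pair, as they were for Tkfc at 6.06 and 6.40 against 5.62 and 5.14. Fgf21 read 0.65, 0.20, 0.84 and -1.72 in NZO and -1.33, -2.08, -3.53 and -2.88 in B6, so that NZO 011 lay among the B6 values. The probe of Rgs16, named after its value was seen, differed by -1.80 (SE 0.71, adjusted p = 0.141 in limma). Of the 13 probes of this list, 7 had a positive difference, and the median was 0.22. In the 8 fits that left out an array, each with fewer samples, Pklr was called in 5, Tkfc in 3, Khk in 2 and Fgf21 in 2, while the differences stayed between 0.82 and 1.09 for Pklr, 0.84 and 1.25 for Tkfc, 0.42 and 0.59 for Khk and 2.09 and 3.02 for Fgf21.

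Among the genes that supply citrate, acetyl-CoA and NADPH, 1 of 13 probes was higher and 1 lower. Pcx, pyruvate carboxylase, which feeds oxaloacetate to the mitochondrion, differed by 0.62 (SE 0.14, adjusted p = 0.0175), and its NZO values of 7.48 to 7.97 were all above the B6 values of 6.90 to 7.23. Acss1, which makes acetyl-CoA from acetate in the mitochondrion, differed by -0.62 (SE 0.12, adjusted p = 0.00845 in limma). In the 8 fits that left out an array, Pcx was called in 6 and Acss1 in 8. Neither was called with slide as a fixed term or within scan day 1, nor Acss1 with normexp background correction or in the deposited table. Under the alternatives other than leaving out 1 array, the difference of Acss1 ranged from -0.77 to -0.06 and that of Pcx from 0.37 to 0.79.

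SREBP-1 is made as a precursor in the membrane of the endoplasmic reticulum, from which Scap escorts it to the Golgi for cleavage, and the Insig proteins hold it back. The list of this processing had 1 of 12 probes higher and 0 lower in limma, and also 1 and 0 at an unadjusted p under 0.05 and with the methods' t-test after adjustment. It was a probe of Srebf2, the gene of the sister factor that serves cholesterol synthesis, with a difference of 0.37 (SE 0.10, adjusted p = 0.0404), while its second probe gave 0.28 (SE 0.19, adjusted p = 0.373), and it was called in 2 of the 8 fits that left out an array. Scap differed by 0.10 (SE 0.12), Insig1 by 0.19 (SE 0.16) and Insig2 by -0.19 (SE 0.18) and -0.17 (SE 0.20), with adjusted p from 0.491 to 0.658 in limma.

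Of the transcription factors upstream, 0 of 24 probes were higher and 1 was lower in limma (1 and 4 at an unadjusted p under 0.05, and 0 and 1 with the methods' t-test after adjustment). It was a probe of Usf2, which binds E-boxes in lipogenic promoters, with NZO values of 1.09 to 1.27 and B6 values of 1.99 to 2.33, a difference of -0.94 (SE 0.11, adjusted p = 0.000678). The second Usf2 probe gave 0.09 (SE 0.15, adjusted p = 0.742 in limma), and the former was called in each of the 8 fits that left out an array. That former probe was not called with slide as a fixed term or with the replicate block. Its difference ranged from -1.14 to -0.87 under the alternatives other than leaving out 1 array. Nr1h3, the LXR receptor that drives Srebf1, gave 0.15 (SE 0.11) and 0.10 (SE 0.11), and Mlx, the partner of ChREBP, gave -0.14 (SE 0.11), with adjusted p of 0.415, 0.624 and 0.450.

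Of the genes that act on the enzymes, 0 of 20 probes were higher and 2 were lower in limma (1 and 5 at an unadjusted p under 0.05, and 0 and 0 with the methods' t-test after adjustment), both of Trib1 (3 probes), a pseudokinase adaptor that targets transcription factors for breakdown. They differed by -0.54 (SE 0.14) and -0.53 (SE 0.14), with adjusted p of 0.0414 and 0.0337, and each passed in 1 of the 8 fits that left out an array. Mid1ip1, which makes the acetyl-CoA carboxylases polymerise and is related to Thrsp, read 3.13, 3.80, 3.26 and 3.94 in NZO 007, 003, 009 and 011 and 3.89, 4.55, 3.77 and 4.61 in B6 011, 010, 015 and 009. Its difference was -0.67 (SE 0.26, adjusted p = 0.138), of the other sign than that of Thrsp. The catalytic subunits of AMP kinase, which switches the carboxylases off, gave 0.16 (SE 0.13) for Prkaa1 and 0.22 (SE 0.11) for Prkaa2, with adjusted p of 0.477 and 0.247 in limma.

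The enzymes of later desaturation and elongation had 5 of 19 probes higher and 2 lower. Elovl5, which lengthens polyunsaturated fatty acids, differed by 1.11 (SE 0.25, adjusted p = 0.0192), with NZO values of 6.09 to 6.64 and B6 values of 4.74 to 5.68. Elovl1, which makes very long saturated fatty acids, was higher with both probes, by 0.82 (SE 0.13) and 0.81 (SE 0.13), with adjusted p of 0.00320 and 0.00449. The electron carriers of the desaturases went in opposite directions, Cyb5r3 by 0.55 (SE 0.11) and 0.49 (SE 0.12) and Cyb5a by -0.40 (SE 0.10). Scd2, the desaturase that is mostly found outside the liver, differed by -0.70 (SE 0.18, adjusted p = 0.0376 in limma), with NZO 003 above the lowest B6 array. In the 8 fits that left out an array, both Elovl1 probes were called in 8, Elovl5 in 5, the Cyb5r3 probes in 8 and 2, Cyb5a in 2 and Scd2 in 2, and all kept their direction. None of these probes was called with slide as a fixed term, within scan day 1 or with the replicate block.

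Esterification and storage of fatty acids had 1 of 19 probes higher and 0 lower in limma (5 and 2 at an unadjusted p under 0.05, and 0 and 0 with the methods' t-test after adjustment). It was a probe of Pnpla3, a lipid droplet protein whose gene is a target of both SREBP-1 and ChREBP, which read -1.95, -1.14, -1.44 and -0.89 in NZO 007, 003, 009 and 011 and -4.43, -4.86, -4.39 and -2.74 in B6 011, 010, 015 and 009. It was well above background on all NZO arrays and on 1 B6 array, so it entered the test through NZO alone, where it was high, and its call is given as a description. The size of its difference, 2.75, depends on B6 values of which 3 of 4 were not well above background, and the probe was not tested where all 8 arrays had to be above background. With normexp background correction it was 0.77, and it was 1.01 in the deposited table. The second Pnpla3 probe, which was above background on all 4 arrays of B6, gave 1.08 (SE 0.40, adjusted p = 0.119 in limma). Of the insulin signal, 2 of 15 probes were higher and 1 was lower. Pik3r1, a regulatory subunit of PI3 kinase, differed by 0.62 (SE 0.12, adjusted p = 0.0116), Insr, the insulin receptor, by 0.46 (SE 0.10, adjusted p = 0.0189) with 1 of 3 probes and Prkci, an atypical protein kinase C, by -0.41 (SE 0.11, adjusted p = 0.0410). The other Insr probes gave -0.32 and -0.06. In the 8 fits that left out an array, Pik3r1 was called in 8, Insr in 4 and Prkci in 1. Pik3r1 was not called in the deposited table or with slide as a fixed term. Its difference ranged from 0.27 to 0.85 under the alternatives other than leaving out 1 array.

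**Figure D4:**
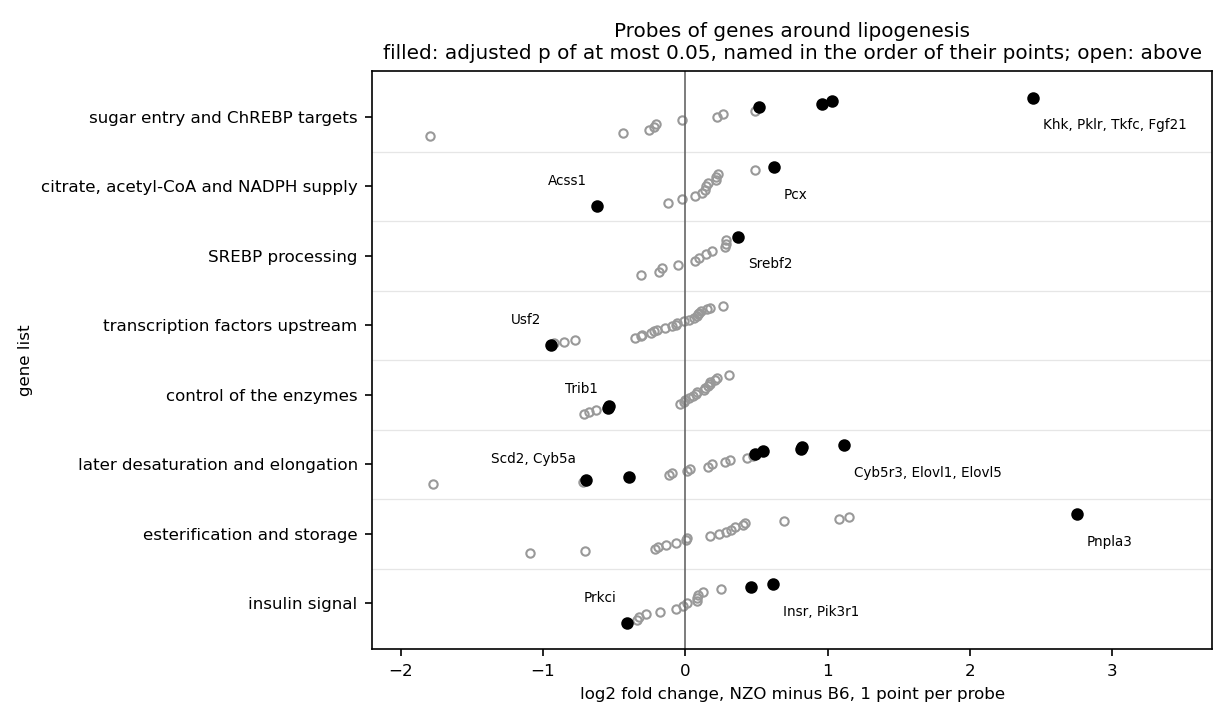
Difference of each probe of the genes around lipogenesis (horizontal axis, log2 fold change, NZO minus B6) by list (vertical axis), filled where the adjusted p was at most 0.05. The called probes of sugar entry and ChREBP targets all lie to the right, up to 2.45, and the single called transcription factor probe, of Usf2, lies at -0.94.

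Markers of other cells moved with the strain in part. In bulk liver, a change in the number of cells and a change in RNA per cell cannot be told apart. Adipocytes also carry out lipogenesis. Of 9 adipocyte genes, Adipoq, Lep and Plin1 were above background on none of the 8 arrays, Cfd on 1 NZO and 3 B6 arrays, and Retn on 2 NZO and 1 B6 arrays with 1 of its probes. Fabp4 and both Cidec probes were above background on all 8 arrays and not called, with differences of -0.30 (adjusted p = 0.241 in limma) for Fabp4 and of 0.29 and 0.42 (adjusted p of 0.658 and 0.245 in limma) for Cidec. Car3, whose probe was brightest and which hepatocytes also express, was higher in NZO by 0.47 (SE 0.10, adjusted p = 0.0133 in limma). The 2 Adrb3 probes were above background on 0 and 1 of the NZO arrays and on all 4 of B6. They entered the test through B6 alone and were called lower in NZO. The summed level of the list was 565 to 644 in NZO and 413 to 485 in B6, nearly all of it from Car3. The log2 level of Car3 was 9.13 to 9.32 in NZO and 8.66 to 8.90 in B6. That of Fabp4, the next brightest, was 1.53 to 2.10 and 2.05 to 2.21. The sum thus follows Car3 and not the list as a whole. Of 4 red blood cell genes, Hba-a1, with the brightest probe, differed by 1.00 and Alas2 by 0.90 (adjusted p of 0.0183 and 0.00230 in limma), with sums of 293 to 470 in NZO and 155 to 208 in B6. Of 6 leukocyte probes, 0 were higher and 2 lower in NZO in limma (Itgax, above background on 2 NZO and all 4 B6 arrays and thus tested through B6 alone, and 1 of Cd68; 1 and 3 at an unadjusted p under 0.05), with sums of 11.05 to 19.0 in NZO and 11.1 to 13.6 in B6 and the Cd3e probe brightest. Of 6 exocrine pancreas genes, Cela3b, Cpa1, Pnlip and Prss2 were above background on no array, and sums were 1.29 to 2.30. None of the 5 hepatocyte, 3 skeletal muscle and 2 exocrine pancreas probes tested was called, and 0 had an unadjusted p under 0.05 in limma, with the Alb probe the brightest of the first list. The part of red blood cells in the differences was not tested.

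Promoters of the members are shown as the sequence beside these values. The RefSeq table on GRCm38.p6 held 13 start sites of 9 of the genes. The letters looked for on both strands were CCAAT of the CCAAT box, GGGCGG of the GC box, CACGTG of the E-box and CACCCCAC of the core of a sterol response element, from 250 bases before to 50 after each start. For 7 genes the 100 bases before a start are printed below with matches in capitals, and the positions of matches of 2 motifs can overlap. These windows were chosen after the matches were seen, and those of Acaca and Elovl6 held no match. Those of Acaca, Fasn and Srebf1 lie inside the span of the gene on GRCm38, not before its outermost start, which for Acaca is at 84129635.
Acaca, chr11:84195338-84195437, plus strand: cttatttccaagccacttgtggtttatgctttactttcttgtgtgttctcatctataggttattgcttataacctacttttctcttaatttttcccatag
Acly, chr11:100528001-100528100, minus strand: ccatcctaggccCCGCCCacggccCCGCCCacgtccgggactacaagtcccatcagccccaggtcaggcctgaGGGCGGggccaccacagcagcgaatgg
Elovl6, chr3:129532286-129532385, plus strand: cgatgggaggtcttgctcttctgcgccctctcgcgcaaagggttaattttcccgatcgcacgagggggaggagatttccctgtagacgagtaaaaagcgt
Fasn, chr11:120824548-120824647, minus strand: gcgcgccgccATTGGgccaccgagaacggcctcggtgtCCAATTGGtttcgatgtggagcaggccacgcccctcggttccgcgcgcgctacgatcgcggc
Me1, chr9:86695915-86696014, minus strand: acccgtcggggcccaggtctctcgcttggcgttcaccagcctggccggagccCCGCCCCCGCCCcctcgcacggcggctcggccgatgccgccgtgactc
Srebf1, chr11:60210472-60210571, minus strand: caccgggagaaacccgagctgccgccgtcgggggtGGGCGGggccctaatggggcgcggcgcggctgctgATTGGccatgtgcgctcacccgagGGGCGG
Thrsp, chr7:97417551-97417650, minus strand: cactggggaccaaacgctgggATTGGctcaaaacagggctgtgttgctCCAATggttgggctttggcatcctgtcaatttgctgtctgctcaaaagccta
CCAAT, the letters bound by NF-Y, was found in 7 of 9 genes, or 8 of their 13 promoters, and in 37.4% of 32851 promoters of the table. GGGCGG, the letters bound by Sp1, was found in 4 of 9 genes, or 5 of 13 promoters, and in 35.7% of all promoters. CACGTG was found in 1 of 9 (Mlxipl), or 1 of 13 promoters, and in 7.15%, and CACCCCAC in 0 of 9 and in 2.87%. A gene with more than 1 start had more windows to hold a match than the single promoters it is set beside, and a match is a description only.

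The probes whose pattern was most like that of the members were sought among 24435 probes above background on all 8 arrays, by Pearson's r of levels around the strain mean over 8 arrays, as a description. For the mean of the 2 called probes they were Car5a (r = 0.996), a carbonic anhydrase of mitochondria, Kiss1 (0.991), an intergenic probe (0.989), Clic5 (0.979) and Ctnnbip1 (0.971). For the mean of all 18 probes, a choice made after the values were seen, the highest was Cth (0.986), which makes cysteine. The probes searched far outnumber the arrays, so nothing is read from these values.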

How the data were processed

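Liver RNA of 4 NZO and 4 B6 samples was extracted with TRIzol, labelled with Cy3 and hybridised to Agilent arrays of 59305 spots besides controls. The authors deposited the scanner intensity values of each array, made by Agilent Feature Extraction (11.0.1.1 per the file headers, 9.1 per the processing notes of the submitters), in which the processed signal is the intensity after background subtraction, with no scaling between arrays. The deposited intensity table of all arrays equalled the raw median intensity for 59305 of 59305 spots on each array (tolerance 0.01) and was used as an alternative.

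The log2 processed signal minus the 75th percentile of the array (119 to 142 in NZO, 137 to 159 in B6) was averaged over the spots of a probe after 96 to 137 outlier spots per array were left out. Well above background were 50.4% to 55.0% of spots in NZO and 53.1% to 60.1% in B6, and 0 were saturated. The number of arrays limits the precision. Probes well above background on all 4 arrays of a strain were tested with limma 3.58.1 in R 4.3.3 and Benjamini-Hochberg adjustment, with no covariate, where the methods of the study name a test with Welch correction, and the fit was tested on simulated data. Other tables came from pandas 2.3.3 in Python 3.11.15, and plots from matplotlib 3.10.9. Other genes were matched to the RefSeq table by accession (27741 probes), symbol (3347) or synonym (312), and 24281 probes kept the name in the files.

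The members and lists were chosen with earlier results of these data known. Named were all members, per list the 2 largest called differences in each direction, and Scap, Insig1, Insig2, Mid1ip1, Mlx, Nr1h3, Prkaa1, Prkaa2 and Pklr whatever their values. The values of 1 further gene are not reported here, and it is part of the counts and medians of its list. Cyb5r3, Khk, Rgs16 and the marker genes fell outside this rule and were named after their values were seen. Alternatives were normexp background correction (offset 50), quantile or median scaling, the deposited table, other filters, outlier spots kept, slide and scan day as terms, values within slide and day, the replicate block, the methods' t-test (with Welch correction) and leaving out each array. The exon or untranslated region of a probe was not determined here.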

Additional observations from a re-analysis of the deposited data

Results flagged for a closer look

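Of the 36 groups of 4 arrays (18 lipogenesis probes in each strain), 1 held a sample that stood apart by Dixon's test at the 95% level. Acaca A_55_P2084703 read -2.08 in NZO 007, where the other NZO arrays read -1.32, -1.29 and -1.21. Chance gives such a sample in about 5% of groups. NZO 007 was also the array that lay low with the other lipogenesis probes.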

How the results depend on the processing

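Both called lipogenesis probes kept their direction under every alternative run. The difference of Me1 A_55_P2009952 ranged from 0.73 to 1.20 and its adjusted p from 0.00833 to 0.192, and that of Srebf1 from -1.14 to -0.52 with adjusted p from 0.00252 to 0.283. No probe was called in either direction (counts of 0 and 0) with slide as a fixed term or within scan day 1. At an unadjusted p under 0.05 in limma, 5 were higher and 1 lower within the 5 arrays of scan day 1. Only 1 slide held both strains, so the slide term took the strain difference from its 3 arrays, 1 of NZO and 2 of B6. The slide term and the fit within that slide thus gave the same differences, 1.20 for Me1 A_55_P2009952 and -0.52 for Srebf1, and are 1 contrast. Scan day 2 also held 1 NZO array against 2 of B6. Scaled to the median 0 were lower, and with the methods' t-test 0 were higher after adjustment, while at the thresholds of the study that test called 1 and 1. Leaving out each array gave 1 to 2 higher (2 without NZO 007) and 1 lower. Of the other members, Me1 A_55_P2016842 alone was ever called, without NZO 007. The deposited table without scaling moved the median of all probes from 0.01 to -0.15 and that of the lipogenesis probes to -0.02.

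The probes around the pathway (14 higher, 7 lower) numbered 9 and 2 scaled to the median, 8 and 14 in the deposited table, 5 and 2 with no filter, 1 and 2 with slide as a fixed term and within the slide, 2 higher within scan day 1, 0 and 1 within scan day 2, 8 and 3 with the methods' t-test and 5 and 2 without NZO 007 and B6 011, and leaving out each array gave 7 to 12 and 2 to 5. The fewest higher came without B6 011 or B6 009 (7 each), and the fewest lower without B6 010 or B6 009 (2 each). Counts over all probes (1874 and 2057) were 991 and 3358 in the deposited table, 497 and 984 with slide as a fixed term, 850 and 804 within scan day 1, 279 and 555 within scan day 2, 275 and 650 within the slide, 1193 lower with the methods' t-test and 1371 lower without NZO 007 and B6 011. Leaving out each array gave 1402 to 1864 higher and 1503 to 1933 lower. The fits within a day or slide used fewer arrays, and otherwise the cause was not tested.

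The labels of both strains hold the numbers 009 and 011, but these are mice of different strains and the deviations of the same number correlated at -0.26 and -0.00395 over probes, so the samples share only a number. With the replicate block, 0 lipogenesis probes were higher and 0 lower (2 and 0 at an unadjusted p under 0.05), 0 and 0 around the pathway and 72 and 134 of all, with Me1 A_55_P2009952 at 1.14 and Srebf1 at -0.80.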
